A study of Mus musculus with 12 samples.

Results

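Klf6, Tfe3 and Bcl6b are 3 genes that encode sequence-specific transcription factors, and they were taken from the mouse expression table by gene name. They are 3 of the 99 genes analysed here. All 3 were among the 70 genes with a level of at least 1 FPKM (fragments per kilobase of exon, scaled to the library total) in 3 or more of the 12 libraries, and Bcl6b passed that filter through its iPSC libraries only. The 12 poly(A) RNA-seq libraries were 3 independent cultures of each of 4 cell types, which were compared pair by pair to ask how far induced mesenchymal stem cells (iMSCs) differ from the cells they came from and from bone marrow mesenchymal stem cells (BMSCs). Skin fibroblasts (Fibs, genotype WT, no transgene) were grown from the ears of young adult female C57BL/6 mice. Induced pluripotent stem cells (iPSCs, genotype Reprogramming) were these Fibs after infection with Sendai virus vectors for OCT4, SOX2, KLF4 and c-MYC, plating on mitomycin-treated feeder cells and picking of colonies, and iMSCs (genotype Reprogramming) were iPSCs passed through embryoid bodies and induced with 10 ng/ml TGF-beta1 and 5 ng/ml bFGF. In the paper's methods a later step of the iMSC induction used medium with serum and no named factor, and the cells were then passaged. BMSCs (genotype WT) came from the femoral marrow cavity of mice whose age was not given in the sources used here. The sources used here do not say from how many iPSC colonies the cultures derived.

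Klf6 is a Krüppel-like zinc finger protein that binds GC-rich boxes, and mouse embryos without it fail in yolk sac blood formation. Tfe3 is a basic helix-loop-helix leucine zipper protein of the MiT/TFE family that binds E-boxes and is held in the cytosol by mTORC1 when nutrients are plentiful. In the nucleus it switches on lysosome and autophagy genes, and in mouse embryonic stem cells its exclusion from the nucleus accompanies the exit from pluripotency. Bcl6b, also known as BAZF, is a BTB and zinc finger repressor related to Bcl6, known in the mouse for its induction by GDNF in spermatogonial stem cells. RNA levels, which were measured here, do not show where these proteins sit in the cell.

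In the deposited table Klf6 (ENSMUSG00000000078) lay on the plus strand of chromosome 13 from 5861482 to 5870394, and Tfe3 (ENSMUSG00000000134) on the plus strand of the X chromosome from 7762560 to 7775202. Bcl6b (ENSMUSG00000000317) lay on the minus strand of chromosome 11 from 70224128 to 70229739. Both ends of Klf6 and of Tfe3 equalled those of GENCODE M21 (GRCm38), and the same held for 85 of the 99 genes. The build named in the submitters' processing notes is mm9. No other gene of that annotation overlapped any of the 3.

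The RefSeq promoter windows of Klf6 and Tfe3 are shown because they hold, or lack, the boxes that members of their own families bind. Each window runs from 250 bases before the start site to 50 bases after it on the plus strand of GRCm38.p6, at chr13:5861239-5861538 for Klf6 and chrX:7762411-7762710 for the first of the listed Tfe3 starts. Capitals mark the E-box CACGTG, a palindrome, and the GC box GGGCGG, searched on both strands.
Klf6: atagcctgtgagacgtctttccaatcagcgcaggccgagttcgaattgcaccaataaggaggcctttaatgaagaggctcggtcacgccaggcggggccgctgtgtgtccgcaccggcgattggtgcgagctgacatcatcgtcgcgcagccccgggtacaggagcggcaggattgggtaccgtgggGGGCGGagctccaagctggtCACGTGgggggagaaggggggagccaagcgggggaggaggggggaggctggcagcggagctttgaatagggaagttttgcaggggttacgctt
Tfe3: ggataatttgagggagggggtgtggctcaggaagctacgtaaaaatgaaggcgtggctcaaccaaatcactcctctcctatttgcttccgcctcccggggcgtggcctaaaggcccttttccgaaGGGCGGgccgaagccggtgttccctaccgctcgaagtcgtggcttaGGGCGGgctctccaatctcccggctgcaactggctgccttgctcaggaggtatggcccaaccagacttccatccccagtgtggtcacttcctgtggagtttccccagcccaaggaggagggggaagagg
The Klf6 window held a GC box that began 63 bases before the start and an E-box that began 43 bases before it. The first Tfe3 window held GC boxes that began 125 and 79 bases before the start and no E-box, and the window of the other Tfe3 start held neither. Of 32851 promoter windows of the same length, 7.15% held an E-box and 35.7% a GC box. The GC content was 63% in the Klf6 window and 60% in the first Tfe3 window, against a median of 52.7% over all windows. The core letters TTCCTAGAA of the BCL6 motif, found in 0.411% of all windows, were in none of these windows. Such a match describes letters and does not show that a factor binds there. The table of windows used here had no entry for Bcl6b.

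Library totals, worked out from the ratio of count to FPKM and gene length, lay between 66114058 and 77355820 counts. Low counts came mostly in steps of 4 (61 of the 77 counts from 1 to 13 were 4, 8 or 12), so counting intervals were taken on the count divided by 4, which corresponds to 16528515 to 19338955 fragments a library. The 99 genes took 0.471% to 0.485% of the counts in iPSCs and 0.365% to 0.418% in the other cell types. The iMSC replicate 2 stood apart from the other iMSC libraries: 9 of the 70 tested genes were over 1.5-fold above both others and 17 were over 1.5-fold below both. Its chi-square per degree of freedom against them was 131 and 149, whereas other replicate pairs gave 3.53 to 10.6. The cell type labels could be checked against few markers. Of the 11 pluripotency markers listed, the 99 genes held Cdh1, the epithelial cadherin, at 131.5 to 142.9 FPKM in iPSCs and at most 0.673 FPKM elsewhere. Of 12 fibroblast and mesenchymal markers they held the integrin subunit Itga5 and the caveolin Cav2. Cav2 was at 13.8 FPKM in Fibs and 1.72 FPKM in iPSCs by means, whereas Itga5 went against its marker role, at 37.6 FPKM in Fibs and 57.5 FPKM in iPSCs. Of 8 MSC markers they held the nerve growth factor receptor Ngfr. It was at 10.8 to 11.1 FPKM in iPSCs, at most 0.0299 FPKM in iMSCs and BMSCs, and so did not mark the mesenchymal stem cells here. Of 10 leukocyte markers, 2 were held, Itgb2 and Clec10a, with summed levels of 0.363 to 1.19 FPKM over all libraries and Clec10a at 0 in all Fib, iMSC and BMSC libraries.

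Klf6 had its highest level in Fibs, at 33.6, 32.5 and 31.7 FPKM in replicates 1, 2 and 3. The BMSC libraries gave 24.6, 26.9 and 23.4 FPKM, and the iPSC libraries 22.0, 22.8 and 22.2 FPKM. Every Fib library thus lay above every BMSC library, and every BMSC library above every iPSC library. In iMSCs the values were 29.8, 11.6 and 27.5 FPKM. Replicate 2 was below all other libraries of the study and the other iMSC libraries were above all BMSC and iPSC libraries, so the iMSC mean describes neither. By means the order was Fibs (32.6 ± 0.974 FPKM, SD, n = 3), BMSCs (24.99 ± 1.77), iMSCs (23.0 ± 9.90) and iPSCs (22.4 ± 0.427). Without replicate 2 the iMSC mean was 28.6 ± 1.63 FPKM (SD, n = 2), the second in the order. The counts behind these levels were 3599 in iMSC replicate 2 and 6893 to 10127 in the other libraries. In that library the counting interval ran from 10.9 to 12.4 FPKM, so counting error does not span the distance to the other iMSC libraries.

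Tfe3 was highest in iMSCs, at 11.2, 11.02 and 11.4 FPKM, and the iPSC libraries were next at 9.93, 10.4 and 10.98 FPKM. All iMSC libraries lay above all iPSC libraries, but only just, since the lowest iMSC value exceeded the highest iPSC value by less than the spread among the iPSC libraries. The BMSC libraries held 8.97, 8.25 and 7.71 FPKM and the Fib libraries 7.95, 7.00 and 7.78 FPKM. These groups overlapped each other and lay below all iPSC and iMSC libraries. The means were 11.2 ± 0.208 FPKM in iMSCs, 10.4 ± 0.525 in iPSCs, 8.31 ± 0.630 in BMSCs and 7.57 ± 0.506 in Fibs (SD, n = 3). The replicate that stood apart for Klf6 did not do so for Tfe3, where it was at 0.972 times the mean of the other iMSC libraries, against 0.405 times for Klf6. Tfe3 counts were 4603 to 7870 a library.

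Bcl6b was high in iPSCs and low in the other 3 cell types. The iPSC libraries held 5.31, 5.68 and 5.57 FPKM (5.52 ± 0.193, SD, n = 3), from 1408, 1572 and 1604 counts. In iMSCs the values were 0.275, 0.367 and 0.337 FPKM (0.326 ± 0.0468), and in BMSCs 0.232, 0.0887 and 0.158 FPKM (0.160 ± 0.0717). Every iMSC library was above every BMSC library, and 42.9% of the tested genes likewise did not overlap between these cell types. The Bcl6b counting intervals did overlap, from 0.160 to 0.534 FPKM over the iMSC libraries and from 0.0326 to 0.383 FPKM over the BMSC libraries. Fibs had 0, 0.0574 and 0.124 FPKM (0.0604 ± 0.0620), from 0, 16 and 33 counts. No counting interval was taken for the 0 in Fib replicate 1, where 3 fragments would correspond to 0.0472 FPKM. The 3 cell types outside iPSCs summed to 49 counts in Fibs, 131 in BMSCs and 258 in iMSCs, against 4584 in iPSCs. In bulk RNA, fewer cells that express a gene and less RNA per cell cannot be told apart.

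**Figure D1:**
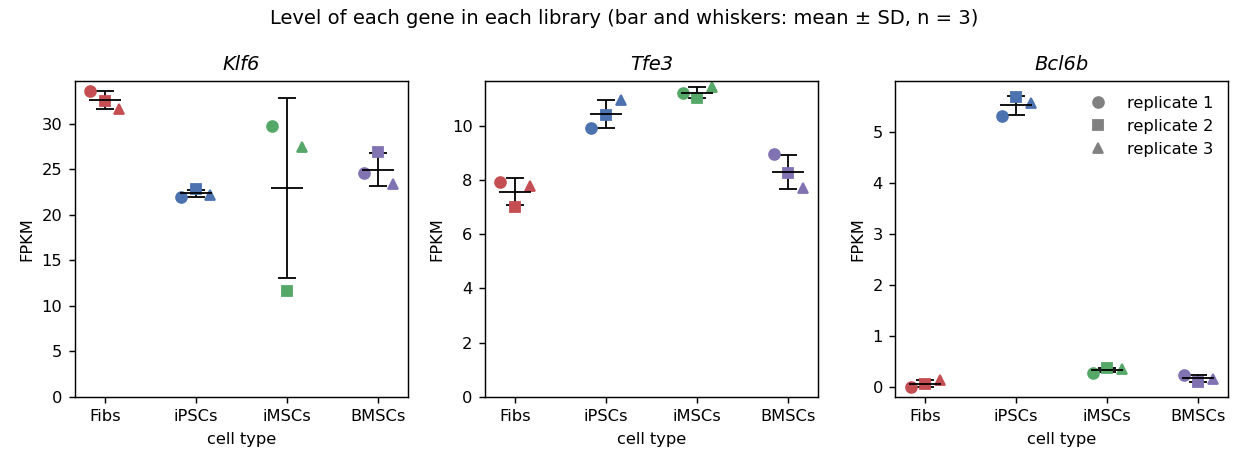
Level of Klf6, Tfe3 and Bcl6b in FPKM (vertical axis) in each of the 12 libraries, grouped by cell type, with a bar for the mean and whiskers for the SD of 3 libraries. For Klf6 the iMSC replicate 2 (11.6 FPKM) sits below all other libraries, Tfe3 is highest in iMSCs, and Bcl6b is above 5 FPKM in iPSCs only.

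Fold changes were tested with edgeR's quasi-likelihood test in each pair of cell types, with p-values adjusted by the Benjamini-Hochberg method over the 70 genes. Pairs that share a cell type share its libraries and are not independent. The paper's methods place iPSCs on feeder cells with LIF and serum replacement, and Fibs and iMSCs in medium with serum. Culture conditions and cell type therefore cannot be told apart in the comparisons with iPSCs. The question of what reprogramming changed was put by iPSCs against Fibs, where all 3 members passed the test at an adjusted p under 0.05, as did 87.1% of the tested genes. Klf6 was lower in iPSCs, and its log2 fold change was -0.54 (SE 0.04, adjusted p = 8.68e-06). Tfe3 was higher by 0.46 (SE 0.06, adjusted p = 0.000325), less than the median of 0.57 over all tested genes. Bcl6b was higher by 6.45 (SE 0.84, adjusted p = 0.000241), with a wide 95% interval of 4.45 to 8.45. The mean FPKM in iPSCs was 0.686 times the Fib mean for Klf6, 1.38 times for Tfe3 and 91.3 times for Bcl6b. The Bcl6b ratio rests on a Fib mean that moved between 0.0287 and 0.0907 FPKM when 1 Fib library was left out, and leaving out single libraries gave log2 fold changes of 5.88 to 7.47. None of the 3 overlapped between the cell types, and neither did 91.4% of the tested genes.

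What differentiation changed was put by iMSCs against iPSCs, in which 75.7% of the tested genes passed and 1 of the 3 members did. Bcl6b was lower in iMSCs with a log2 fold change of -4.06 (SE 0.21, adjusted p = 1.04e-05), and its mean FPKM was 0.0591 times that in iPSCs. For Tfe3 the log2 fold change was 0.11 (SE 0.10, 95% interval -0.14 to 0.35, adjusted p = 0.384). Its libraries did not overlap between the cell types, which held for 80% of the tested genes. Klf6 gave 0.04 with an interval of -0.78 to 0.86 (adjusted p = 0.928), which leaves room for a change of that size in either direction. Without iMSC replicate 2 Klf6 was higher in iMSCs by 0.36 (adjusted p = 0.000864), and without iMSC replicate 1 or 3 its value was -0.19 or -0.11 and did not pass.

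Against the starting Fibs, iMSCs differed in Tfe3 among the 3 members, while 55.7% of the tested genes passed. Tfe3 was higher in iMSCs by 0.57 (SE 0.10, 95% interval 0.33 to 0.80, adjusted p = 0.0039), or 1.48 times the Fib mean in FPKM, and it passed in each of the 17 alternative analyses (adjusted p 4.14e-07 to 0.0258). Klf6 had a log2 fold change of -0.51 (SE 0.34, adjusted p = 0.272), and without iMSC replicate 2 it was lower by a smaller amount and passed, at -0.19 (adjusted p = 0.0269). Klf6 did not pass when any other library was left out (adjusted p 0.159 to 0.408). Bcl6b had 2.39 (SE 1.13, 95% interval -0.36 to 5.15, adjusted p = 0.126). The Bcl6b call turned on the fit and on Fib replicate 1, which held no count. It passed without that library (log2 fold change 1.82, adjusted p = 0.0484), with the counts divided by 4 (2.38, adjusted p = 0.0393), with all 12 libraries in 1 fit (2.39, adjusted p = 0.0199) and in limma on log2(FPKM + 1) (0.32, adjusted p = 0.00477), and not in DESeq2 (2.40, adjusted p = 0.0912). All 3 members had libraries that did not overlap between iMSCs and Fibs, as had 72.9% of the tested genes.

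How close iMSCs came to marrow-derived cells was put by iMSCs against BMSCs, where 17.1% of the tested genes passed and 1 of the 3 members did. Tfe3 was higher in iMSCs, with a log2 fold change of 0.43 (SE 0.10, 95% interval 0.18 to 0.69, adjusted p = 0.0333) and a mean FPKM 1.35 times that of BMSCs. The Tfe3 libraries did not overlap, which was so for 42.9% of the tested genes. Its call was lost when any BMSC library or iMSC replicate 1 or 3 was left out (adjusted p 0.109 to 0.151, log2 fold change 0.38 to 0.49) and was kept without iMSC replicate 2 (0.45, adjusted p = 0.000819). It was also lost when no filter on low values was set (0.43, adjusted p = 0.055, 91 genes). Bcl6b gave 1.01 (SE 0.47, 95% interval -0.13 to 2.15, adjusted p = 0.198), with no pass in any of the 17 alternatives. Klf6 gave -0.12 (95% interval -0.94 to 0.70, adjusted p = 0.826). Without iMSC replicate 2 the direction of Klf6 turned, to 0.20 higher in iMSCs (adjusted p = 0.0392), in a fit that kept 2 iMSC libraries. Leaving out any other library kept Klf6 lower in iMSCs, at -0.35 to -0.07, and it did not pass (adjusted p 0.618 to 0.944).

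In BMSCs against Fibs, 75.7% of the tested genes passed. Klf6 was the only member to pass, lower in BMSCs by a log2 fold change of -0.38 (SE 0.06, 95% interval -0.52 to -0.25, adjusted p = 0.000444), and its libraries did not overlap, as in 78.6% of the tested genes. Tfe3 gave 0.13 (95% interval -0.03 to 0.30, adjusted p = 0.124) and Bcl6b 1.38 (95% interval -1.16 to 3.93, adjusted p = 0.288), each with overlapping libraries. Neither passed in any of the 17 alternatives.

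In BMSCs against iPSCs all 3 members passed, beside 78.6% of the tested genes, and none overlapped, beside 82.9%. Bcl6b was lower in BMSCs by -5.07 on the log2 scale (SE 0.28, adjusted p = 1.08e-06), and its mean FPKM was 0.0289 times that in iPSCs. Tfe3 was lower by -0.33 (SE 0.07, 95% interval -0.49 to -0.17, adjusted p = 0.00273). Klf6 was higher by 0.16 (SE 0.06, 95% interval 0.02 to 0.30, adjusted p = 0.0375), a call lost when either of BMSC replicates 1 and 2 or any iPSC library was left out (adjusted p 0.058 to 0.118, log2 fold change 0.10 to 0.18). In each comparison with iPSCs, Bcl6b passed in every one of the 17 alternatives, with adjusted p-values up to 0.00627 against Fibs, 0.000657 against iMSCs and 0.000702 against BMSCs. Bcl6b had entered the tested set through its iPSC libraries only, so these calls draw on the group that let it in. With a further limit of a log2 fold change over 1 in either direction, Bcl6b in these 3 comparisons was the only member called. That rule called 54.3% of the tested genes in iPSCs against Fibs, 54.3% in iMSCs against iPSCs, 48.6% in BMSCs against iPSCs, 38.6% in iMSCs against Fibs, 25.7% in BMSCs against Fibs and 5.71% in iMSCs against BMSCs. The Klf6 calls outside iMSCs needed a spread estimated without iMSC replicate 2. With all 12 libraries in 1 fit the adjusted p-values of Klf6 were 0.0784 in iPSCs against Fibs, 0.222 in BMSCs against Fibs and 0.611 in BMSCs against iPSCs, and with the other 11 libraries in 1 fit they were 4.36e-06, 0.000124 and 0.0207.

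**Figure D2:**
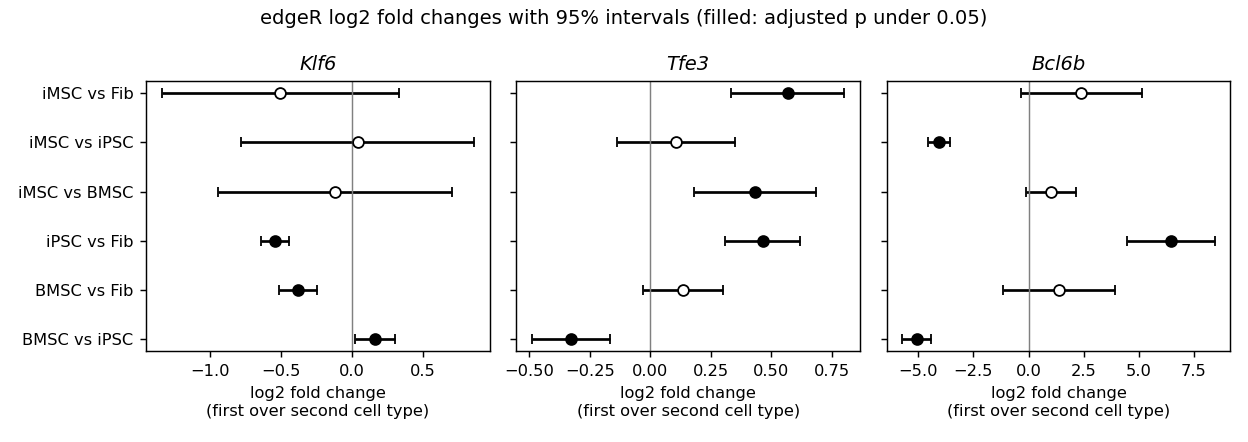
edgeR log2 fold changes of each gene in the 6 pairs of cell types (horizontal axis, first over second cell type), with 95% intervals and filled points at an adjusted p under 0.05. The Klf6 intervals are widest where iMSCs enter (SE 0.34), and the 3 Bcl6b comparisons with iPSCs stand at 6.45, -4.06 and -5.07.

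The 3 comparisons that involve iPSCs also moved with the scaling. The fits above took the library totals as they were. Scaling by edgeR's TMM factors, computed on the 70 tested genes, which hold only a small share of the counts, shifted the median log2 fold change of all genes by -0.46 in iPSCs against Fibs, by 0.42 in iMSCs against iPSCs and by 0.31 in BMSCs against iPSCs. Among the genes that passed, the split of higher to lower went from 38 and 23 to 32 and 30 in the first, from 19 and 34 to 29 and 26 in the second and from 19 and 36 to 30 and 29 in the third. Tfe3 then gave 0.01 in iPSCs against Fibs (adjusted p = 0.896), -0.02 in BMSCs against iPSCs (adjusted p = 0.733) and 0.53 in iMSCs against iPSCs (adjusted p = 0.00495). With median-ratio factors the corresponding Tfe3 values were 0.03 (adjusted p = 0.585), -0.13 (adjusted p = 0.133) and 0.44 (adjusted p = 0.00727). Whether Tfe3 in iPSCs was level with iMSCs or with Fibs and BMSCs thus depended on the scaling, whereas Tfe3 was above Fibs and above BMSCs in iMSCs under all 3 scalings. For Klf6, TMM gave -1.001 in iPSCs against Fibs (adjusted p = 2.8e-07), 0.47 in BMSCs against iPSCs (adjusted p = 0.000123) and 0.42 in iMSCs against iPSCs (adjusted p = 0.204), so its directions were kept and its sizes were larger. The Bcl6b calls against iPSCs did not change.

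**Figure D3:**
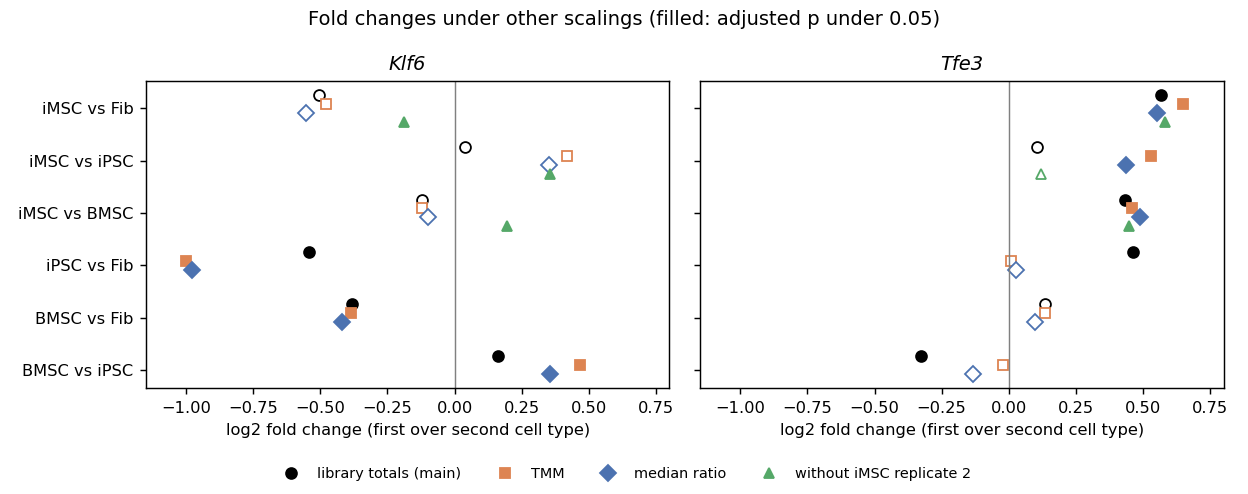
Log2 fold changes of Klf6 and Tfe3 (horizontal axis, first over second cell type) under library totals, TMM and median-ratio scaling, and without iMSC replicate 2, filled at an adjusted p under 0.05. Tfe3 in iPSCs against Fibs stands at 0.46 under library totals and at 0.01 under TMM, and leaving out iMSC replicate 2 moves Klf6 in iMSCs against BMSCs from -0.12 to 0.20.

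Levels of different genes can be set side by side only per length, and the choice of length mattered here. The length implied by count and FPKM was within 1% of the union of all annotated exons for 60 of 60 genes with several transcripts, and within 1% of the longest transcript for 5 of them. The FPKM values are therefore per kilobase of exon union. For Klf6 the union was 4391 bases and the longest coding transcript 4225 bases, and for Bcl6b they were 3719 and 3366 bases. For Tfe3 the union was 9261 bases and the longest coding transcript 3390 bases, and the annotation of the gene includes retained-intron transcripts of up to 6328 bases. On the FPKM scale the Klf6 level was 4.31 times the Tfe3 level in Fibs, 3.01 times in BMSCs, 2.14 times in iPSCs and 2.04 times in iMSCs. Per kilobase of the longest coding transcript these ratios were 1.64, 1.14, 0.814 and 0.777. The order of Klf6 and Tfe3 in iPSCs therefore depended on the length used. The iMSC ratios rest on the Klf6 mean, which replicate 2 (11.6 FPKM, against 29.8 and 27.5 FPKM) lowered. No order per coding length is therefore read for iMSCs. Comparisons of 1 gene between cell types used the same length throughout. They were not corrected for any difference in transcript use between the cell types. Bcl6b was below both in every cell type on either scale, with 6.10 ± 0.214 CPM (counts scaled to the library total) per kilobase of coding transcript in iPSCs (SD, n = 3), against 23.2 ± 0.443 for Klf6 and 28.5 ± 1.43 for Tfe3. Which transcripts the counts came from was not measured in this table.

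**Figure D4:**
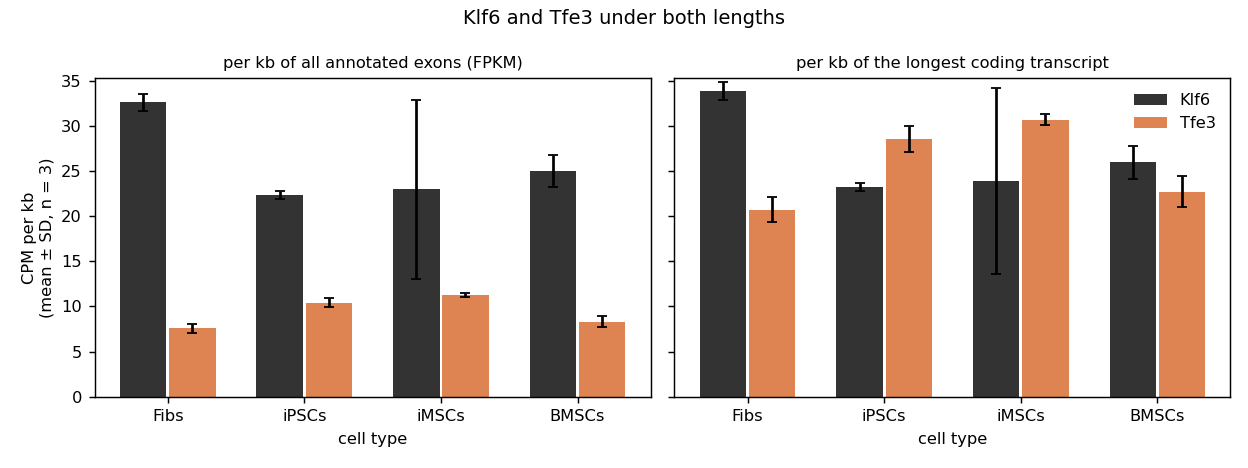
Level of Klf6 and Tfe3 in each cell type as CPM per kilobase (vertical axis, mean ± SD of 3 libraries), on the left per kilobase of all annotated exons, the FPKM, and on the right per kilobase of the longest coding transcript. Klf6 is 2.14 times Tfe3 in iPSCs on the left and 0.814 times on the right.

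The 3 genes can be set beside the other transcription factors of the table. Of 143 sequence-specific transcription factors listed, 10 were among the 99 genes and 7 were tested: Klf6, Tfe3, Bcl6b, the Max-network repressor Mnt, the limb T-box factor Tbx4, the cartilage factor Sox9 and the fat cell factor Pparg. The others, Tbx2, Lhx2 and Zfy2, were at group means of at most 0.398 FPKM. In iMSCs against Fibs, 3 of the 7 rose (Tbx4, Tfe3 and Mnt) and 2 fell (Pparg and Sox9), beside 55.7% of all tested genes that passed in either direction. In iMSCs against iPSCs, 2 rose (Tbx4 and Sox9) and Bcl6b fell, beside 75.7% of all tested genes, and in iMSCs against BMSCs Tfe3 was the 1 that passed, beside 17.1%. Between iPSCs and Fibs, Mnt, Tfe3 and Bcl6b were higher in iPSCs, and Klf6, Pparg and Sox9 were lower, beside 87.1% of all tested genes that passed. Tbx4 and Mnt were higher in BMSCs than in Fibs, and Klf6, Pparg and Sox9 lower, beside 75.7%. Between BMSCs and iPSCs, Klf6, Tbx4, Pparg and Sox9 were higher in BMSCs, and Tfe3 and Bcl6b lower, beside 78.6%. All these calls are those of the main edgeR fits under library totals. As given above, the Tfe3 calls with iPSCs were lost under TMM. The Tfe3 call against BMSCs and the Klf6 call in BMSCs against iPSCs were lost when some single libraries were left out. The median log2 fold change of the 7 was 0.57 in iMSCs against Fibs (0.09 over all tested genes), 0.38 in iMSCs against iPSCs (-0.29), -0.05 in iMSCs against BMSCs (0.04), 0.25 in iPSCs against Fibs (0.57), 0.13 in BMSCs against Fibs (-0.06) and 0.16 in BMSCs against iPSCs (-0.26). Sox9 at 17.5 ± 0.538 FPKM and Pparg at 3.27 ± 0.697 FPKM (SD, n = 3) shared with Klf6 their highest level in Fibs. No other of the 7 factors shared the iPSC maximum of Bcl6b, and Mnt, at 15.8 ± 3.57 FPKM in iMSCs, shared the iMSC maximum of Tfe3 by its mean, though its iMSC replicate 2 was at 11.7 FPKM, below all BMSC libraries. Klf6 was the only 1 of 25 Krüppel-like and Sp factors and Bcl6b the only 1 of 17 BTB zinc finger factors among the 99 genes, so their relatives were not analysed here.

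**Figure D5:**
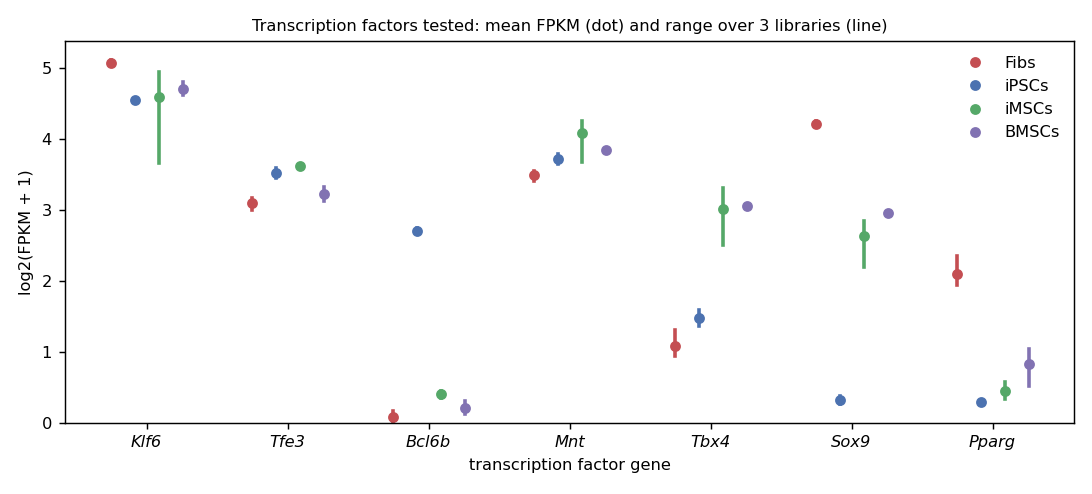
Mean level (dot) and range over 3 libraries (line) of the 7 tested transcription factors on a log2(FPKM + 1) axis, coloured by cell type. Bcl6b is near 0 outside iPSCs, and on this axis the iMSC ranges of Klf6 (11.6 to 29.8 FPKM), Tbx4 (4.68 to 8.90 FPKM) and Sox9 (3.58 to 6.14 FPKM) are wider than that of Mnt.

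Among the tested genes, those whose log2(FPKM + 1) followed Klf6 most closely over the 12 libraries were Fgf23, the phosphate-regulating hormone (Pearson r = 0.767), the cyclin Ccnd2 (0.731) and the activin receptor Acvr1b (0.711). Each was highest in Fibs, with means of 9.65, 58.7 and 38.7 FPKM. Without iMSC replicate 2 the same coefficients were 0.954, 0.844 and 0.885. The lowest coefficients with Klf6 were those of the vascular scaffold gene Ccm2 (-0.877), Itga5 (-0.826) and the complex I subunit Ndufa9 (-0.806), and Itga5 was at 177.5 FPKM in iMSC replicate 2 against 79.4 and 83.2 FPKM in the others. Without that library these 3 coefficients were -0.69, -0.50 and -0.88, so those of Ccm2 and Itga5 rested in part on it. For Tfe3, genes with a close pattern were the mitochondrial RNA-binding gene Tbrg4 (0.783) and Ccm2 (0.767), and the most opposed were Pparg (-0.771), the tyrosine kinase Fer (-0.758) and Cav2 (-0.723). For Bcl6b the closest were Cdh1 (0.997), the surface antigen Gpa33 (0.994) and the mitochondrial creatine kinase Ckmt1 (0.993), with iPSC means of 138, 30.5 and 5.75 FPKM and at most 0.519 FPKM in any other cell type. Their Spearman coefficients, which weigh the low libraries equally, were 0.937, 0.838 and 0.608. The most opposed to Bcl6b were Tom1l2 (-0.973) and Egfl6 (-0.955), of which Egfl6, a secreted matrix protein, was at 0.605 FPKM in iPSCs and 47.4 to 79.3 FPKM elsewhere. Between the members the coefficients were -0.50 for Klf6 and Tfe3, -0.31 for Klf6 and Bcl6b and 0.50 for Tfe3 and Bcl6b. These values are over 12 libraries in 4 groups of 3 and mostly restate the group means, so they describe a shared pattern and nothing of control. With a pseudocount of 0.1 in place of 1, the 3 closest genes stayed the same for Klf6, and 2 of 3 did for Tfe3 and for Bcl6b. Ccm2 then left the 3 closest to Tfe3, and Ckmt1 left the 3 closest to Bcl6b. The 3 most opposed genes stayed the same for Klf6 and Tfe3. For Bcl6b only 1 of the 3 most opposed stayed, Tom1l2, and Egfl6 dropped out.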

How the data were processed

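Poly(A) RNA of 12 cultures was sequenced as paired reads on a NovaSeq. The submitters' processing notes name cutadapt 1.9, HISAT2 2.0.4, StringTie 1.3.4d, DESeq2, edgeR and mm9 without their roles. The deposited table holds raw counts per gene and FPKM values, which the authors scaled to gene length and library total; the counting tool, and the reason low counts come in steps of 4, could not be found in the paper, labels or headers.

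Library totals were worked out from 7 to 9 single-transcript genes a library (spread at most 0.0924%) and used as library sizes. Each pair of cell types was fitted on its own 6 libraries with edgeR 4.0.16 (quasi-likelihood, prior count 0.125, R 4.3.3) over the 70 genes with at least 1 FPKM in 3 of 12 libraries, with Benjamini-Hochberg adjustment and a threshold of 0.05; the fold rule added a log2 fold change over 1. Genes under the filter (29) were not tested. The SE is the log2 fold change over the root of F. Counting intervals are exact Poisson intervals at 95% and cover counting error only. The genes, lists and tests were chosen with earlier results of these data known. Named genes were the 3 members, for each the 3 tested genes of highest and of lowest Pearson r over the 12 libraries, and listed genes in the table; some items that this rule selects are not reported here. Alternatives were TMM and median-ratio scaling, DESeq2 1.42.0, limma 3.58.1 on log2(FPKM + 1) and log2(FPKM + 0.1), other filters, counts divided by 4, shared fits, a replicate block and leaving out each library; the fits on 11 libraries were chosen after seeing the data. The fit was tested on simulated counts.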

Additional observations from a re-analysis of the deposited data

How the results depend on the processing

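Of the members' calls, Tfe3 in iMSCs against Fibs and Bcl6b against iPSCs in all 3 comparisons kept their direction and their side of the threshold in all 17 alternatives. Bcl6b had passed the filter on low values through its iPSC libraries only. In iMSCs against Fibs, Bcl6b passed in limma with a pseudocount of 1 (0.32) or 0.1 (1.48), with all 12 libraries in 1 fit (2.39), with 11 libraries (2.30) and with counts divided by 4 (2.38), and leaving out single libraries gave 1.82 to 3.42. Klf6 there passed with 11 libraries (-0.19), and leaving out single libraries gave -0.74 to -0.19. In iMSCs against iPSCs, Tfe3 passed under TMM (0.53) and median-ratio scaling (0.44). Klf6 there turned direction without passing in limma (-0.068 and -0.077 with pseudocounts of 1 and 0.1) and with a replicate block (-0.071), and it passed with 11 libraries (0.36); leaving out single libraries gave -0.19 to 0.36. In iMSCs against BMSCs, Tfe3 did not pass without a filter (0.43) or with a replicate block (0.44, adjusted p = 0.18), and leaving out single libraries gave 0.38 to 0.49. Klf6 there turned to 0.20 with 11 libraries, with -0.35 to 0.20 when single libraries were left out. The genes called with the fold limit in that comparison numbered 4, 8 with all 12 libraries in 1 fit, 1 with a replicate block and 1 to 5 without single libraries. In BMSCs against Fibs they numbered 18, and 11 in limma with a pseudocount of 1. With iPSCs, Tfe3 did not pass under TMM or median-ratio scaling against Fibs (0.0072 and 0.029) or in BMSCs (-0.023 and -0.13). With all 12 libraries in 1 fit Klf6 did not pass in iPSCs against Fibs (-0.54), BMSCs against Fibs (-0.38) or BMSCs against iPSCs (0.16), and leaving out single libraries gave 0.10 to 0.20 in the last. The cause was not tested in any of these.

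Same-numbered correlations of deviations were over 0.1 in 5 of 18 pairs (-0.388 to 0.436), and 4 of 12 libraries correlated best with their own number. In replicates 1, 2 and 3 they were 0.170, -0.165 and 0.436 for Fibs with iPSCs. For iPSCs with iMSCs they were 0.398, 0.255 and -0.044. With groups of 3, these values cannot decide whether the numbers pair the libraries, and the replicate block is given only here. The block changed no other call of the 3 members. Depth limits Bcl6b outside iPSCs, where no library exceeded 98 counts. Scaling factors rest on 70 genes, and the other genes of the transcriptome were not analysed here.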

Other observations

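Genes listed as targets of these factors were few among the 99 analysed. Scpep1, a lysosomal peptidase and the 1 gene held of 50 lysosome and autophagy genes, was at 212.5 ± 10.4 FPKM in Fibs, 165.3 ± 35.2 in iMSCs, 164.1 ± 3.98 in BMSCs and 83.6 ± 2.76 in iPSCs (SD, n = 3). It was lower in iPSCs than in Fibs by -1.35 on the log2 scale (edgeR, adjusted p = 3.87e-07) and higher in iMSCs than in iPSCs by 0.98 (adjusted p = 0.00411). In iMSCs against Fibs its value was -0.36 (adjusted p = 0.179). A relation of Scpep1 to Tfe3 was not tested. Of 13 genes described as KLF6 targets, 2 were held, Acvrl1 and Cdh1, and they ran in opposite directions. Acvrl1, a TGF-beta family type I receptor, was at 20.3 ± 6.82 FPKM in Fibs, 10.1 ± 2.24 in iMSCs, 6.47 ± 0.971 in BMSCs and 1.77 ± 0.233 in iPSCs. Cdh1, which is also the 1 gene held of 15 TFE3 targets listed outside the lysosome, was at 138 ± 5.83 FPKM in iPSCs, 0.519 ± 0.186 in iMSCs, 0.0926 ± 0.0428 in BMSCs and 0.0744 ± 0.0405 in Fibs. Klf6 had its highest mean in Fibs, as Acvrl1 did, whereas Cdh1 was highest in iPSCs. The Klf6 means in iPSCs (22.4 FPKM) and iMSCs (23.0 FPKM) were close, with an edgeR adjusted p of 0.928. The cyclin Ccnd2, described as a target of BCL6 proteins, was at 58.7 ± 3.37 FPKM in Fibs and at 13.8 ± 0.412 FPKM in iPSCs, 13.1 ± 4.39 in iMSCs and 12.9 ± 0.364 in BMSCs. Ccnd2 had a log2 fold change of -0.09 in BMSCs against iPSCs (95% interval -0.20 to 0.01, adjusted p = 0.0838). A relation of any of these genes to Klf6 or Bcl6b was not tested.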
